A study of Homo sapiens with 6 samples.

Results

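LINC symbols name long intergenic noncoding RNA genes by number, before a function gives the gene another name. The genes described here are the 80 such symbols with a mean of at least 20 counts over 6 RNA-seq libraries of K562 cells. They were drawn from 876 LINC symbols among the 26485 gene symbols of the count table. Of the rest, 550 had 0 counts in all 6 libraries and 246 had a mean above 0 and under 20. K562 is an established human myeloid leukaemia line that expresses erythroid genes. In the study, ZNF410, a zinc-finger transcription factor known for activating CHD4, was knocked out with either of a pair of CRISPR guides, and the purpose stated was to learn how ZNF410 regulates gene expression. The control libraries carried the guide sgNeg2 and were labelled WT. The guides sgRNA#1 and sgRNA#2 were each labelled ZNF410 KO, and each of the 3 guides had 2 libraries, numbered replicate 1 and replicate 2. No drug or time point differed between the groups, and the labels do not say whether a knockout line was 1 clone or a pool, or what the replicate number stands for.

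A long intergenic noncoding RNA is transcribed from its own promoter between protein-coding genes and is usually capped, spliced and polyadenylated, but it has no long reading frame. Most are present at lower levels than messenger RNAs and are restricted to few cell types. Some act as RNA, by binding proteins, by serving as scaffolds or by affecting a neighbouring gene through their own transcription. Others were later found to encode a small protein and were renamed.

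The deposited gene counts summed to 8788816 to 9537470 per library, and the 80 genes held 0.182% to 0.200% of them. ZNF410 itself had 331 and 322 counts with sgNeg2, 175 and 234 with sgRNA#1, and 157 and 190 with sgRNA#2, so RNA of the targeted gene was lower in every library labelled ZNF410 KO but was not at 0. The erythroid markers GATA1 (245 to 293 counts scaled to a common library size, CPM), KLF1 (208 to 286 CPM) and TFRC (1607 to 2844 CPM) were present, and MS4A1 and ALB, markers of B cells and liver, had 0 counts. EPCAM, an epithelial marker, was at 94.9 to 111 CPM in these libraries. Libraries of the same replicate number in different groups deviated together from their group means (r = 0.758 to 0.826 over 9966 genes), which bears on every comparison below.

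The genes were chosen by their mean count, which is therefore given as a description only. Just inside the limit of 20 lay LINC00894 (27.0), LINC00884 (25.0), LINC00987 (23.5), LINC00869 (21.2) and LINC00649 (21.0). Just outside it lay LINC00491 (18.8), LINC00482 (17.5), LINC01572 (17.2), LINC00936 (17.0) and LINC00656 (17.0). All 80 genes passed the filter on low counts that left 12282 genes for testing.

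The names no longer describe all of these genes. In RefSeq (GRCh38.p14), 19 of the 80 carry another symbol today. By its annotation 74 are noncoding, 1 is a transcribed pseudogene (LINC01296, now DUXAP9) and 5 are protein-coding. The 5 are LINC00998 (SMIM30), LINC00493 (SMIM26), LINC00116 (MTLN), LINC01420 (NBDY) and LINC00094 (BRD3OS). Of the 76 genes matched in GENCODE v29, 19 overlap a protein-coding gene, 7 of them on the same strand and 13 on the other. Without the strand setting of the counting, reads of such partners cannot be told apart. Distances were taken only to coding genes wholly outside the RefSeq span of the LINC gene. The nearest of these lay at a median distance of 22304 bp, and for 62 of the 80 genes it lay within 100000 bp.

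Levels were compared between genes per length, as the authors' FPKM, which comes from a separate quantification of the same libraries. The median level of the 80 genes was 3.75 FPKM, against 10.2 FPKM over the 11812 tested genes with a value. At least 10 FPKM was reached by 16 of them (20%), against 50.4% of all tested genes. The top of the list was held by genes with another name today. LINC00152 (CYTOR, a cytoskeleton regulator RNA; chr2:87455427-87521518, plus strand) averaged 146 FPKM. LINC00998 (SMIM30, a membrane microprotein; chr7:113116718-113118554, minus strand) averaged 120 FPKM, and LINC00657 (NORAD; chr20:36045618-36050960, minus strand) averaged 103 FPKM. LINC00958 (72.1 FPKM), LINC01029 (70.5 FPKM) and LINC00493 (62.1 FPKM) came next. These 6 stood above LINC01296 (22.1 FPKM), LINC01287 (20.1 FPKM), LINC00508 (18.6 FPKM) and LINC01234 (16.8 FPKM).

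Spread within a group set how far this order can be read. LINC00152 was at 158 ± 56.5 FPKM in the control libraries, 146 ± 45.2 with sgRNA#1 and 135 ± 30.4 with sgRNA#2 (SD, n = 2 each). LINC00998 was at 130 ± 24.7, 119 ± 21.8 and 112 ± 16.4 FPKM in the same order. LINC00657 was at 101 ± 1.45, 102 ± 5.69 and 105 ± 2.08 FPKM. The intervals of LINC00152 and LINC00998 overlapped in every group, whereas NORAD varied least of the top 3.

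**Figure D1:**
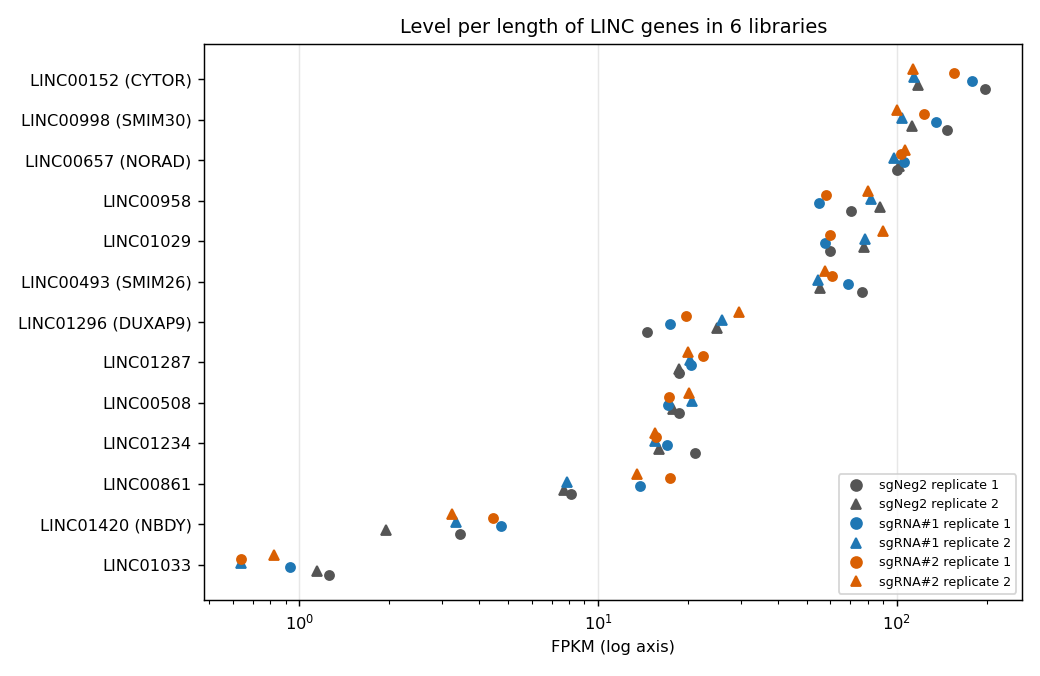
FPKM (log axis) of the 10 LINC genes with the highest mean FPKM and of LINC00861, LINC01420 and LINC01033, with 1 symbol per library, coloured by guide and shaped by replicate number. The 6 highest genes averaged 62.1 to 146 FPKM, and within several genes the circles and triangles lie further apart than the colours.

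NORAD is named for its activation by DNA damage. It alone supplied 27.2% to 30.0% of the whole-number counts of the 80 genes in each library. This abundant RNA was close to even across the guides. It was at 525 and 528 CPM in the control libraries, 556 and 494 CPM with sgRNA#1, and 539 and 536 CPM with sgRNA#2. The groups overlapped, and its log2 fold change of knockout against wild type was 0.01 (SE 0.051, edgeR adjusted p = 0.958) in a fit with the replicate number.

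The knockout comparison asks which of these genes depend on ZNF410. In the edgeR quasi-likelihood fit by guide or genotype alone, none of the 80 genes was called at an adjusted p under 0.05 with sgRNA#1, with sgRNA#2, in knockout against wild type or between the guides, and percent called over all 12282 genes was 0 in each of the 4. DESeq2 without the replicate number called none of the 80 either. At an unadjusted p under 0.05, 0 of the 80 passed with sgRNA#1 (0.977% of all tested genes), 0 with sgRNA#2 (1.15%), 1 in the genotype comparison (2.31%) and 0 between the guides (0.269%). That 1 gene was LINC01033 (edgeR unadjusted p = 0.0342). The common dispersion of the fit by guide corresponds to a biological coefficient of variation of 24.2%, against 6.17% once the replicate number is a term.

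With the replicate number as a block, edgeR called 0 of the 80 genes with sgRNA#1 (0.887% of all tested genes), 1 with sgRNA#2 (1.38%), 1 in knockout against wild type (1.84%) and 0 between the guides (0.0896%). The called gene was LINC00861, higher in the knockout (1.19% of all tested genes were called higher and 0.651% lower). The 2 guide comparisons share their control libraries. At an unadjusted p under 0.05 the blocked fit passed 7 of the 80 with sgRNA#1 (9.91% of all tested genes), 8 with sgRNA#2 (12.3%), 8 in the genotype comparison (12.9%) and 3 between the guides (4.39%). The shares of LINC genes thus lay near or below those of all tested genes. By size, the median absolute log2 fold change of knockout against wild type was 0.13 for the 80 genes and 0.10 for all tested genes, with median standard errors of 0.196 and 0.103. The fold changes ran from -0.79 to 0.64, and 49 (61.3%) were above 0 and 31 below, against 51.6% above 0 over all tested genes. This share was not even across guides or replicate numbers. By guide, 38 (47.5%) were above 0 with sgRNA#1 and 48 (60%) with sgRNA#2, against 50.3% and 51.3% of all tested genes. Against the control of the same number, replicate 1 had 29 of the 80 genes higher with sgRNA#1 and 37 with sgRNA#2. Replicate 2 had 43 and 56.

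LINC00861, a long noncoding RNA gene of chromosome 8 with no other name in RefSeq, was the gene with the largest rise. It had 717 and 656 counts with sgNeg2, 1302 and 686 with sgRNA#1, and 1427 and 1055 with sgRNA#2. In CPM these were 82.7 and 69.2, then 143 and 71.9, then 154 and 115, or 76.0 ± 9.52, 108 ± 50.5 and 134 ± 28.0 (SD, n = 2 each). Replicate 1 of sgRNA#1 and both libraries of sgRNA#2 were high, while replicate 2 of sgRNA#1 (71.9 CPM) lay below control replicate 1 (82.7 CPM), so the knockout and control groups overlapped. Against the control of the same number, log2(CPM + 0.5) was higher by 0.79 and 0.05 with sgRNA#1 and by 0.90 and 0.72 with sgRNA#2.

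The log2 fold change of LINC00861 in knockout against wild type was 0.67 (SE 0.297, edgeR adjusted p = 1.00) without the replicate block and 0.64 (SE 0.139, adjusted p = 0.0266) with it. With the block it was 0.45 (SE 0.126, adjusted p = 0.148) for sgRNA#1 and 0.81 (SE 0.124, adjusted p = 0.00324) for sgRNA#2, but the difference between the guides, 0.36 (SE 0.120), was not called (adjusted p = 0.999). The sgRNA#1 result and the difference both depended on the libraries in the fit. For sgRNA#1, edgeR with the block called LINC00861 in the fit of only the 4 libraries compared (0.44, adjusted p = 0.0309), with no filter (0.44, adjusted p = 0.000109), and without control replicate 2 (0.66, adjusted p = 2.38e-10), sgRNA#1 replicate 2 (0.75, adjusted p = 9.06e-05), sgRNA#2 replicate 1 (0.44, adjusted p = 0.00659) or sgRNA#2 replicate 2 (0.45, adjusted p = 0.000271). The difference between the guides was called in the fit of only their 4 libraries (0.37, adjusted p = 2.17e-05), with no filter (0.36, adjusted p = 0.00796), and without control replicate 1 (0.37, adjusted p = 3.48e-05), control replicate 2 (0.36, adjusted p = 2.58e-05) or sgRNA#1 replicate 1 (0.72, adjusted p = 0.00966). Fits by guide with 1 library left out or with only 4 libraries have 1 residual degree of freedom. The rounded expected counts of the second quantification, 705 and 723 in the controls, 1260 and 739 with sgRNA#1, and 1624 and 1197 with sgRNA#2, gave 0.70 (SE 0.173, edgeR adjusted p = 0.0496, with the block). With the block, the genotype call ended in DESeq2 (0.63, adjusted p = 0.432) and in limma on log2(FPKM + 1) (0.62, adjusted p = 0.253). In edgeR it ended without sgRNA#1 replicate 1 (0.63, adjusted p = 0.0575), sgRNA#2 replicate 1 (0.59, adjusted p = 0.0764) or sgRNA#2 replicate 2 (0.52, adjusted p = 0.0506). It also ended without control replicate 1, at 0.42. Without control replicate 2 it was 0.85 (adjusted p = 0.00535) and without sgRNA#1 replicate 2 it was 0.80 (adjusted p = 0.000176). The sgRNA#2 call was kept by edgeR without any 1 of the 6 libraries, at 0.58 to 1.03, and ended in DESeq2 (adjusted p = 0.253) and limma (adjusted p = 0.104).

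The nearest coding gene on one side of LINC00861 is TRIB1, a pseudokinase gene 484120 bp away, and on the other side LRATD2, 601246 bp away and not tested. TRIB1 had 205 and 146 counts with sgNeg2, 308 and 177 with sgRNA#1, and 322 and 144 with sgRNA#2. Its knockout libraries overlapped the controls, and its blocked log2 fold change was 0.36 (SE 0.125, edgeR adjusted p = 0.205). Both genes were lower in replicate 2, LINC00861 at -0.57 (SE 0.101, edgeR adjusted p = 0.000414) and TRIB1 at -0.89 (SE 0.120, adjusted p = 3.96e-05) on the log2 scale.

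**Figure D2:**
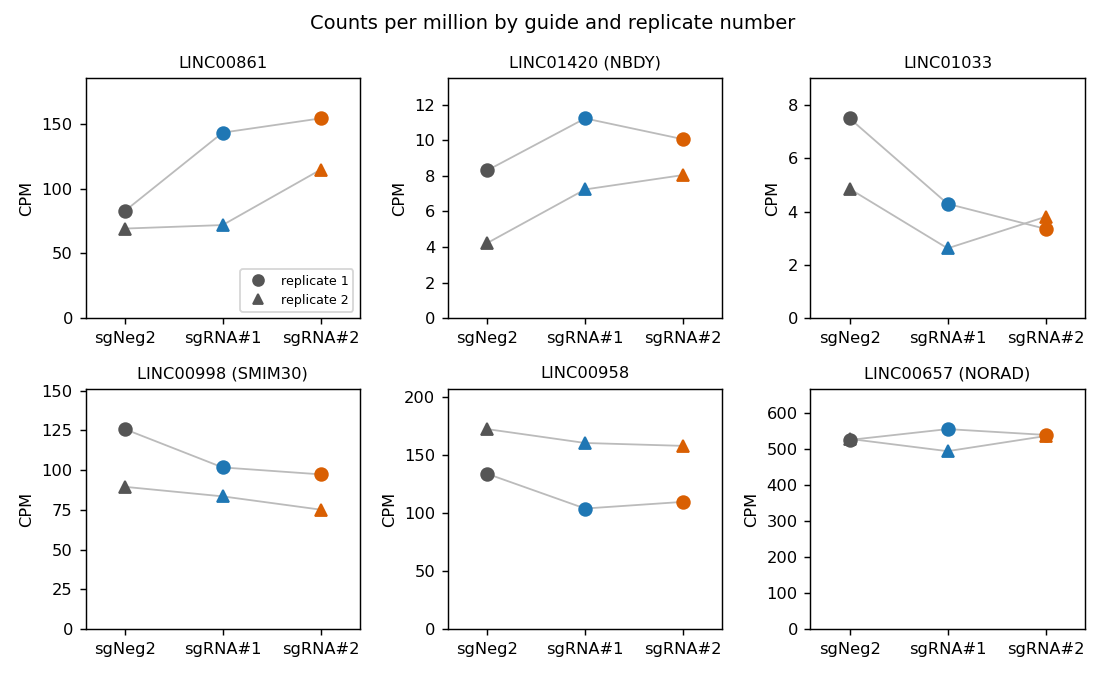
CPM of 6 LINC genes by guide, with 1 symbol per library and a line joining the libraries of one replicate number. LINC00861 stays near its control only in replicate 2 of sgRNA#1 (71.9 against 69.2 CPM), LINC01420 lies above and LINC01033 and LINC00998 below the control of the same number in all 4 knockout libraries, and LINC00657 stays between 494 and 556 CPM.

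Beyond LINC00861, the paired differences describe which genes kept 1 direction without passing the test. Of the 80 genes, 12 (15%) were higher than the control of the same number in all 4 knockout libraries, against 16.2% of all tested genes, and 13 were lower in all 4, against 14.9%. All 4 knockout libraries lay above both controls for 1 gene, LINC00200, named here after its values were seen (5.05% of all tested genes), and below both for 4 (4.4%). The 4 were LINC01033, LINC00987, LINC00689 and LINC01011, the last also named after its values were seen. By FPKM from the second quantification, LINC00200 with replicate 1 of sgRNA#2 (7.54) lay below both controls (7.76 and 7.59), and LINC01011 in that library (8.74) lay above both (8.35 and 6.77), so neither gene kept the pattern there. Of the 4 falls only that of LINC01033 had every knockout library below both controls by FPKM as well, since LINC00689 reached 2.38 and LINC00987 0.72 FPKM with replicate 2 of sgRNA#1, above control replicate 1 (2.1 and 0.46 FPKM). The 4 differences share 2 control libraries, so they are not independent.

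The largest of the uniform rises after LINC00861 was that of LINC01420 (chrX:56729243-56819179, plus strand), which encodes NBDY, a microprotein that binds the messenger RNA decapping machinery. It had 72 and 40 counts with sgNeg2, 102 and 69 with sgRNA#1, and 93 and 74 with sgRNA#2. Replicate 2 of sgRNA#1 (7.23 CPM) and of sgRNA#2 (8.04 CPM) lay below control replicate 1 (8.30 CPM), so the groups overlapped. The blocked log2 fold change was 0.58 (SE 0.198, edgeR adjusted p = 0.204) from whole-number counts and 0.56 (SE 0.153, adjusted p = 0.0764) from expected counts. Unblocked it was 0.55, and 1.10 without control replicate 1 or 0.14 without control replicate 2 (edgeR adjusted p = 0.917 to 1.00). LINC00909 (ZNF407-AS1, blocked log2 fold change 0.52), LINC00641 (0.39), LINC00470 (0.29) and LINC00116 (MTLN, encoding mitoregulin of the inner mitochondrial membrane, 0.28) followed, with edgeR adjusted p from 0.437 to 0.590. Expected counts gave less for LINC00909 (0.28) and LINC00641 (0.16), more for LINC00470 (0.42), and 0.24 for LINC00116. By expected counts, 1 knockout library of LINC00909 (61 against 65) and 1 of LINC00641 (56 against 57) lay below the control of the same number. LINC00116 had 88 and 79 counts with sgNeg2, 99 and 113 with sgRNA#1, and 116 and 87 with sgRNA#2. Control replicate 1 had 1 count more than replicate 2 of sgRNA#2.

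The largest of the uniform falls was that of LINC01033 (chr5:54320944-54415125, plus strand). It had 65 and 46 counts with sgNeg2, 39 and 25 with sgRNA#1, and 31 and 35 with sgRNA#2. Every knockout library lay below both controls, from 2.62 to 4.29 CPM against 4.85 and 7.50 CPM. The log2 fold change was -0.79 (SE 0.255, edgeR adjusted p = 0.161) with the block and -0.81 (SE 0.307, adjusted p = 1.00) without it. Unblocked, it was -0.47 without control replicate 1 and -1.09 without control replicate 2 (edgeR adjusted p = 0.960 and 0.845). Its whole-number counts were 5.88 times its expected counts, and the expected counts, 9 and 9 in the controls, 7 and 5 with sgRNA#1, and 5 and 6 with sgRNA#2, were too low for the edgeR fit. They too were lower in every knockout library than in both controls, and limma on log2(FPKM + 1) with the block gave -0.33 (adjusted p = 0.231).

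LINC00689 (chr7:159008354-159026238, plus strand), which overlaps VIPR2 on the other strand in GENCODE, had 131 and 140 counts with sgNeg2, 73 and 133 with sgRNA#1, and 81 and 121 with sgRNA#2. Replicate 1 of each guide was low, and replicate 2 lay just below the controls. The blocked log2 fold change was -0.47 (SE 0.170, edgeR adjusted p = 0.222), and -0.40 (adjusted p = 0.145) from expected counts. Without control replicate 2 the blocked fit called it, at -0.85 for genotype (adjusted p = 0.0421), -0.85 with sgRNA#1 (adjusted p = 0.0181) and -0.84 with sgRNA#2 (adjusted p = 0.0137). LINC00987 (-0.51), LINC00869 (-0.49), LINC00115 (-0.45) and LINC00659 (-0.26) were the other uniform falls among the 6 largest, with adjusted p from 0.543 to 0.754. For LINC00987 the expected counts gave 0.08, on the other side of 0, and for LINC00869 (-0.12) and LINC00115 (-0.10) they gave smaller falls, whereas LINC00659 had -0.27. The expected counts of LINC00115 were 67 and 101 in the controls, 53 and 114 with sgRNA#1, and 57 and 102 with sgRNA#2, so its fall was not uniform in that table. Nor were those of LINC00869, whose replicate 1 of sgRNA#1 (2.66 FPKM) lay above control replicate 1 (2.48 FPKM), and of LINC00659, whose replicate 2 of sgRNA#1 (2.78 FPKM) and of sgRNA#2 (2.66 FPKM) lay above control replicate 2 (2.48 FPKM).

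**Figure D3:**
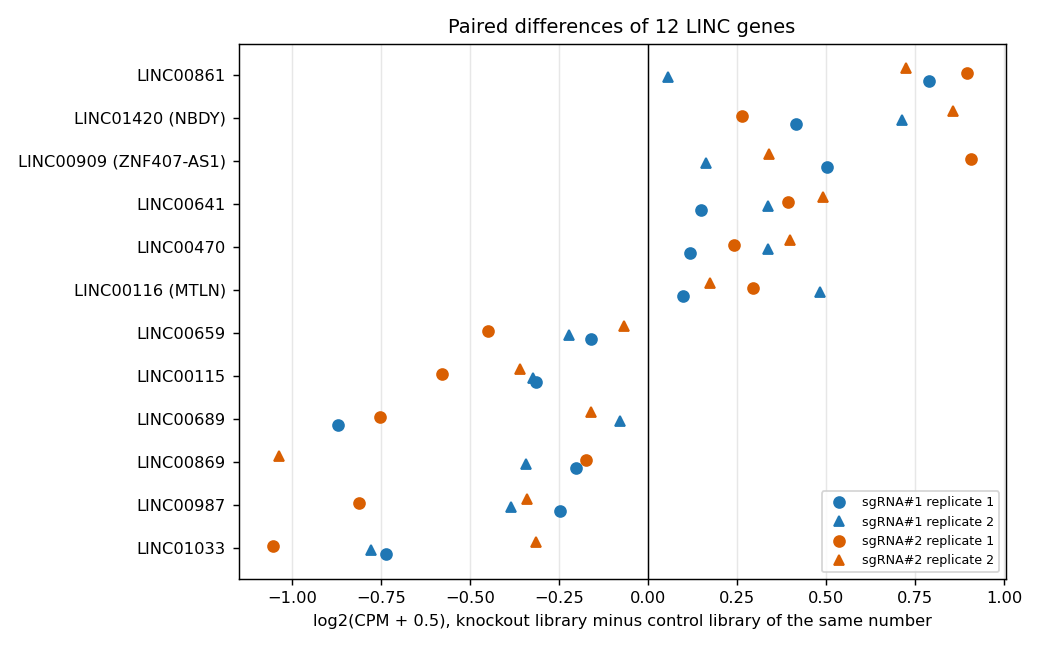
Difference in log2(CPM + 0.5) between each knockout library and the control library of the same replicate number, for the 6 largest rises and the 6 largest falls among genes with all 4 differences on 1 side of 0. The differences of LINC00861 run from 0.05 to 0.90 and those of LINC01033 from -1.05 to -0.31.

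Promoter windows were described by base composition and by 4 short motifs. RefSeq windows of 300 bases (250 before and 50 after the start, GRCh38.p14) matched 51 of the 80 genes, with a median GC content of 58.0%, against 58.7% over 35116 windows. The 4 motifs searched on both strands were AGATAA (the GATA factor motif), TATAAA (the TATA box), CCAAT (bound by NF-Y) and GGGCGG (the GC box). Matches of different motifs may share bases, and GGGCGG can overlap itself. AGATAA was found in 7.84% of the windows of LINC genes and 10.3% of all windows, TATAAA in 13.7% and 11.5%, CCAAT in 45.1% and 34.6%, and GGGCGG in 41.2% and 45.0%. The windows of 4 genes from the uniform rises and falls are shown for their different make-up, with matches in capitals on the strand of the gene. LINC01420 (chrX:56728993-56729292, plus strand, 41.3% GC) has no match. LINC00641 (chr14:21206851-21207150, minus strand, 39.0% GC) has AGATAA and an inverted CCAAT, LINC00987 (chr12:9239823-9240122, plus strand, 54.3% GC) has overlapping GC boxes, and LINC00659 (chr20:62776807-62777106, minus strand, 63.0% GC) has TATAAA 31 bases before the start and 4 inverted GC boxes.

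LINC01420 (NBDY): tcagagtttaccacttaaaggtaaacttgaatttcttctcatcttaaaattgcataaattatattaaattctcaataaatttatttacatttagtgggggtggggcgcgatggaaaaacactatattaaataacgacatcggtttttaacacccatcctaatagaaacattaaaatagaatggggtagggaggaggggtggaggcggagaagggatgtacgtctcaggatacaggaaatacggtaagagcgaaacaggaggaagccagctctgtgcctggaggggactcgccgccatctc
LINC00641: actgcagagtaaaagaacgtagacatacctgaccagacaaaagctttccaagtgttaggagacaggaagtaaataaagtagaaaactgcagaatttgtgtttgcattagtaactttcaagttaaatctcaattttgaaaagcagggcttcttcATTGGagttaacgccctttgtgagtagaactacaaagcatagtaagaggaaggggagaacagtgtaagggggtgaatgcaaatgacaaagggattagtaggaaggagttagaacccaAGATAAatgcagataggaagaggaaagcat
LINC00987: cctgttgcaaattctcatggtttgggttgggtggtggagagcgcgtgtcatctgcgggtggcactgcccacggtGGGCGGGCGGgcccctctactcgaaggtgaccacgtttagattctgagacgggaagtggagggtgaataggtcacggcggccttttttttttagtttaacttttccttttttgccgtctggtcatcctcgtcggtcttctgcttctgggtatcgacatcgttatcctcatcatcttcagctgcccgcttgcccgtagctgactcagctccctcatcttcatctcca
LINC00659: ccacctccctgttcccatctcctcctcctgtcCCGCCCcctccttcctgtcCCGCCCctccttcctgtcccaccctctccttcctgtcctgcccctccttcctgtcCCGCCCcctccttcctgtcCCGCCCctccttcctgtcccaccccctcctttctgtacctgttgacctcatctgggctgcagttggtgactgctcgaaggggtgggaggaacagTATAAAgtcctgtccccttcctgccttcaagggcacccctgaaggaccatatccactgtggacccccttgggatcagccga

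Among the abundant genes, LINC00998 and LINC00958 had small falls with narrow errors in the blocked fit. Unblocked, these falls moved with the control left out, from -0.01 (without control replicate 1) to -0.49 (without control replicate 2) for LINC00998 and from -0.38 to -0.01 for LINC00958, with edgeR adjusted p of 0.845 to 0.995. LINC00998, the SMIM30 gene, had 1091 and 848 counts with sgNeg2, 924 and 796 with sgRNA#1, and 900 and 691 with sgRNA#2. Each knockout library was below the control of its own number, but replicate 1 of each guide lay above control replicate 2. The blocked log2 fold change was -0.26 (SE 0.068, edgeR adjusted p = 0.0721), or -0.18 (SE 0.058, adjusted p = 0.143) from expected counts. It passed without control replicate 2 (-0.34, adjusted p = 0.0498) and without sgRNA#1 replicate 2 (-0.31, adjusted p = 0.0456). LINC00958 (chr11:12979534-12989548, minus strand) had 1162 and 1636 counts with sgNeg2, 945 and 1532 with sgRNA#1, and 1015 and 1455 with sgRNA#2. Its blocked log2 fold change was -0.22 (SE 0.063, edgeR adjusted p = 0.116), and with either guide it passed only without control replicate 2 (-0.34, adjusted p = 0.00723, with sgRNA#1 and -0.32, adjusted p = 0.0113, with sgRNA#2), among the leave-one-out fits. LINC00152 (CYTOR), with 434 and 299, 382 and 258, and 368 and 290 counts in the same order, gave -0.21 (SE 0.094, edgeR adjusted p = 0.373). The 2 other renamed coding genes, LINC00493 (SMIM26, a mitochondrial microprotein) and LINC00094 (BRD3OS), gave -0.05 (adjusted p = 0.926) and -0.03 (adjusted p = 0.937).

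Long noncoding RNAs with established names outside the LINC series gave the setting. Of a list of 44, 42 were in the table and 34 were tested, and in the blocked edgeR fit 1 (2.94%) was called higher and 0 lower in knockout against wild type, against 1.19% and 0.651% of all tested genes. The gene was BANCR, with 5 and 0 counts with sgNeg2, 50 and 18 with sgRNA#1, and 48 and 10 with sgRNA#2 (adjusted p = 0.00280). It passed the filter on low counts only through the knockout libraries, so it had to differ, and nothing is read from its share of the list. MALAT1, an abundant nuclear RNA, had a blocked log2 fold change of 0.11 (SE 0.106, adjusted p = 0.722), and the median of the 34 was -0.01, against 0.00 over all tested genes.

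The second quantification checks the counting but not the replication, since it comes from the same libraries. All 80 genes were found in it, 70 under the same symbol and 10 under the newer one. The ratio of summed whole-number to summed expected counts had a median of 0.553 over tested genes and 0.719 over the LINC genes with a ratio, which LINC01141 lacks. It lay within 2-fold of 0.553 for 56 of the 80 genes (70%, with LINC01141 kept among the 80), against 89.2% of the 11675 tested genes with a ratio. It was lower for 2, LINC01296 (0.146) and LINC00649 (0.182), and higher for 21. LINC01344 (6.95), LINC01090 (6.14), LINC00431 (5.92) and LINC01033 (5.88) were the highest, named after their values were seen where no rule names them. LINC01141, also named after its values were seen, had 21 to 45 whole-number counts per library but was listed at 0 expected counts in all 6.

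Fold changes of knockout against wild type from both quantifications had the same sign for 58 of the 74 genes fitted in both, with r = 0.65 across genes. Among the 56 genes whose ratio lay within 2-fold of the median, 47 had the same sign (r = 0.82), and among the 18 others 11 did (r = 0.38). Genes are not independent replicates, and both sets share the libraries, so these are descriptions. In the blocked fit of the expected counts edgeR called 1 of 74 genes for genotype (3.03% of 12764 tested genes), 0 with sgRNA#1 (1.39%) and 1 with sgRNA#2 (2.26%), in each case LINC00861. The widest gap was that of LINC01021 (PURPL, an RNA known as a p53 target). Its whole-number counts were 36 and 34 in the controls, 47 and 50 with sgRNA#1, and 36 and 40 with sgRNA#2. Its expected counts were 9 and 11, then 22 and 25, then 19 and 30, so in that table every knockout library lay above both controls. The blocked log2 fold change was 0.27 (SE 0.258, edgeR adjusted p = 0.723) from the first and 1.22 (SE 0.368, adjusted p = 0.107) from the second, and limma on log2(FPKM + 0.1) with the block called it (1.11, adjusted p = 0.0432).

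**Figure D4:**
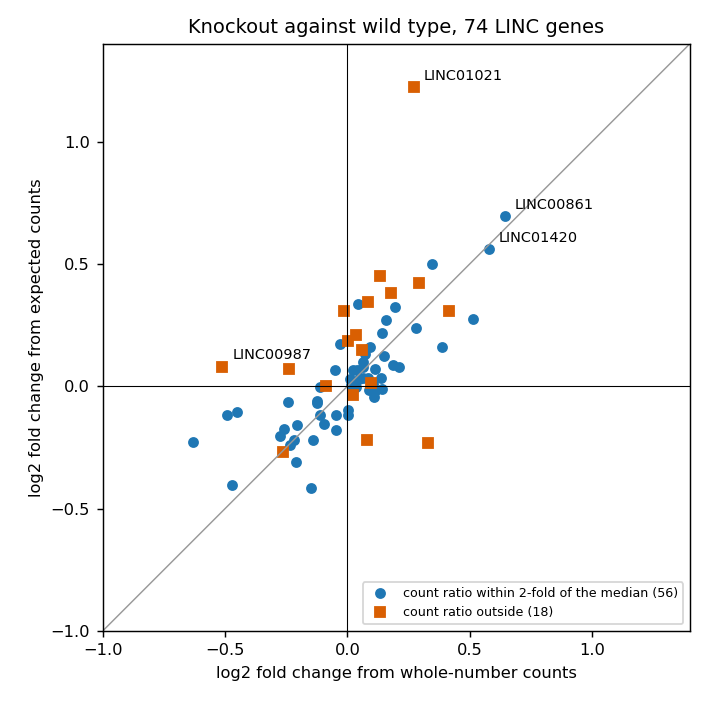
Blocked log2 fold change of knockout against wild type from expected counts (vertical) against whole-number counts (horizontal), with 1 point for each of the 74 LINC genes fitted in both and the line of equal values. Circles are the 56 genes with a count ratio within 2-fold of the median and squares the 18 others. LINC01021 lies at 0.27 and 1.22, farthest from the line.

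More of these genes were called between the replicate numbers than in any comparison of knockout with control. In the fit with guide and number, edgeR called 27 of the 80 genes (33.8%) between replicate 2 and replicate 1, 14 higher (21.6% of all tested genes) and 13 lower (23.5%), against 45% of all tested genes in both directions. Called and changed at least 2-fold were 5 (6.25%), against 7.49%. The median absolute log2 fold change was 0.37 for the 80 genes and 0.26 for all tested genes, and all 3 replicate 2 libraries lay above all 3 replicate 1 libraries for 19 genes (25.6% of all tested genes) and below them for 22 (26.5%). Expected counts gave 32 of 74 called (43.2%), against 52.6%. Of the erythroid markers, HBE1, KLF1 and TFRC had more counts in every replicate 2 library than in any of replicate 1, and GATA1 was not (2371 to 2688 counts in replicate 1 and 2316 to 2500 in replicate 2). HBE1, embryonic epsilon globin, had 827, 1384 and 1486 counts in the replicate 1 libraries and 4201, 9365 and 8228 in the replicate 2 libraries, and TFRC, the transferrin receptor, 14123 to 15136 and 25477 to 25977. Their part in the differences of the LINC genes was not tested.

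Among the genes higher in replicate 2, LINC01311 (chr22:19171706-19172832, plus strand) had 36, 28 and 37 counts in the replicate 1 libraries of sgNeg2, sgRNA#1 and sgRNA#2, and 93, 90 and 123 in the replicate 2 libraries. The sets did not overlap, and the log2 fold change was 1.53 (SE 0.201, edgeR adjusted p = 3.07e-05). LINC01004 rose from 55, 45 and 53 counts to 99, 124 and 154 (1.22, SE 0.190, adjusted p = 0.000131). LINC00894 (EOLA2-DT) had 21, 13 and 13 and then 32, 45 and 38 counts (1.22, adjusted p = 0.00711), and its call ended without sgRNA#1 replicate 1 (adjusted p = 0.0748) or replicate 2 (0.0852). LINC01089 (0.88, adjusted p = 0.00113) rose too. LINC01399 (0.80, adjusted p = 0.0323) and LINC00476 (0.74, adjusted p = 0.0470) lost their calls without any 1 of the 6 libraries, at adjusted p of 0.0730 to 0.144 and 0.0576 to 0.213, while their log2 fold changes stayed at 0.78 to 0.83 and 0.61 to 0.85.

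Among the genes lower in replicate 2, LINC01366 (chr5:170331393-170335100, plus strand) fell furthest, from 103, 53 and 68 counts to 15, 12 and 15. Its log2 fold change was -2.45 (SE 0.268, edgeR adjusted p = 5.62e-06), and -2.06 (adjusted p = 1.35e-05) from expected counts. The sets did not overlap. LINC00623 had 79, 71 and 55 counts and then 35, 37 and 32 (-1.03, adjusted p = 0.00157), and LINC00963 191, 174 and 184 and then 115, 129 and 98 (-0.75, adjusted p = 0.000361). LINC00659 (-0.76, adjusted p = 0.0410), LINC01420 (-0.62, adjusted p = 0.0156) and LINC01608 (-0.62, adjusted p = 0.0161) were called as well, but not without some libraries. LINC00659 was lost without either control or either sgRNA#1 library (adjusted p = 0.123 to 0.216), as was LINC01420 (0.0525 to 0.0808). LINC01608 was lost without sgRNA#1 replicate 1 (0.0587), sgRNA#2 replicate 1 (0.0705) or sgRNA#2 replicate 2 (0.0569). DESeq2 called none of LINC00894, LINC01399, LINC00476, LINC00659, LINC01420 and LINC01608 (adjusted p = 0.0628 to 0.272). LINC00659 was not called in the expected counts (-0.47, adjusted p = 0.240) or in limma on log2(FPKM + 1) (adjusted p = 0.155) either, and LINC01399 not in limma (adjusted p = 0.408). LINC01311, LINC01004, LINC01089, LINC01366, LINC00623 and LINC00963 kept their call in DESeq2, in the expected counts, in limma on log2(FPKM + 1) and without each library. In the list of other named long noncoding RNAs, 13 of the 34 tested were higher (38.2%) and 6 lower (17.6%) in replicate 2, against 21.6% and 23.5% of all tested genes, among them MIR17HG, host of the miR-17 cluster (log2 fold change 1.31, SE 0.101, edgeR adjusted p = 1.94e-07), and GAS5, a host of small nucleolar RNAs (-0.69, SE 0.072, adjusted p = 3.45e-06).

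**Figure D5:**
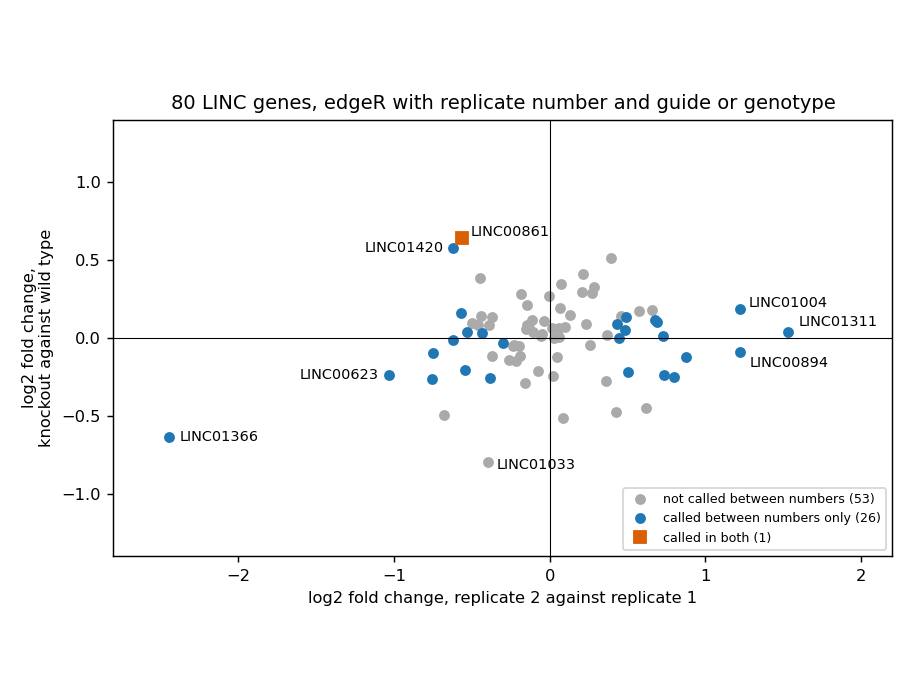
Log2 fold change of knockout against wild type (vertical) against that of replicate 2 over replicate 1 (horizontal), from edgeR fits with the replicate number, with 1 point for each of the 80 LINC genes. The points run from -2.45 to 1.53 along the horizontal axis and from -0.79 to 0.64 along the vertical one, and the square is LINC00861, called in both comparisons.

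Close neighbours were compared with their LINC genes next. Coding genes that overlap the RefSeq span of a LINC gene were not compared. A coding gene outside the span lay within 5000 bp of 15 of the 80 genes, in 17 pairs, of which 13 had a tested neighbour. In the blocked edgeR fit 0 of these 13 were called for genotype (1.84% of all tested genes) and 5 between the replicate numbers (45%). Signs matched in 7 of the 13 pairs for genotype (r = 0.34) and in 6 for the replicate number (r = -0.35), given as a description over 13 pairs that share libraries. LINC01311 and SLC25A1, the mitochondrial citrate carrier gene 2749 bp away, had opposite signs between the numbers, at 1.53 and -0.26 (edgeR adjusted p = 0.000738). LINC01578 (CHASERR; chr15:92882843-92898747, plus strand), known for restraining the neighbouring CHD2, had 177 and 149 counts with sgNeg2, 160 and 177 with sgRNA#1, and 176 and 172 with sgRNA#2. The groups overlapped. CHASERR had a blocked genotype log2 fold change of 0.04 (SE 0.130, edgeR adjusted p = 0.938), and CHD2, 1577 bp away, one of -0.13 (adjusted p = 0.465).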

How the data were processed

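RNA-seq libraries of K562 cells carrying sgNeg2, sgRNA#1 or sgRNA#2 (2 each) were grouped by title and genotype. The authors deposited a table of whole-number counts per gene symbol, and a table of expected counts, TPM and FPKM, per the file headers. The submitters' processing notes name Trim Galore, HISAT2 2.2.1, SAMtools 1.9, HTSeq 0.6.1, RSEM 1.3.2, DESeq2 1.36.0 and hg38, without saying which made which table. The strand setting is not given in the sources used here. TPM was not used. The 5 rows of reads given to no gene (61.6% to 62.6% of each total) were left out.

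The test of counts was edgeR 4.0.16's quasi-likelihood F-test (R 4.3.3, TMM, filterByExpr by group), adjusted by Benjamini-Hochberg over 12282 genes and called under 0.05. SE is the log2 fold change over the square root of F. The main design had no replicate block. Same-numbered libraries deviated together (r = 0.813, 0.758 and 0.826), so the numbers were taken as pairing them. The labels do not state this, so it comes from the data, and blocked values stand beside the main ones. Residual degrees of freedom were 3 without and 2 with the block in the fits by guide, and 4 and 3 in the fits by genotype. Nothing says that libraries came from separate cultures, so p-values measure the spread between these libraries. Replicates differed by more than counting noise (chi-square per degree of freedom 23.8 to 28.5). CPM used TMM-scaled totals, except for the cell type markers, where it used the gene count totals without TMM. Paired differences used log2(CPM + 0.5). Expected counts were rounded for testing. Scripts were tested on simulated counts.

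Alternatives were DESeq2 1.42.0, its size factors, limma 3.58.1 on log2(FPKM + 1) or log2(FPKM + 0.1), other filters and limits of membership, and leaving out each library. Renamed genes were matched by RefSeq synonyms (GRCh38.p14), and overlaps and strands come from GENCODE v29. Genes and lists were chosen with earlier results of these data known. Named are the 10 highest by FPKM, called genes with their neighbours, the 6 largest uniform paired rises and falls, the 6 largest called rises and falls between numbers, renamed genes, and the 5 symbols on each side of the count limit.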

Additional observations from a re-analysis of the deposited data

Results flagged for a closer look

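LINC01287 had 1 library apart among the 4 knockout libraries: replicate 2 of sgRNA#2 was at 29.6 CPM and the others at 33.6, 33.7 and 34.4 CPM, a gap of 0.8405 of the range, past Dixon's 95% critical value for 4 libraries. By FPKM from the second quantification that library was not apart, at 20.01 against 20.47, 20.26 and 22.39. Chance flags about 1 in 20 groups. For LINC01296 both sgRNA#1 libraries were below and both sgRNA#2 libraries above the control of the same number, and the difference between the guides was 0.1667 on the log2 scale (SE 0.157, edgeR with replicate block, adjusted p = 0.999). Its expected counts did not show this, since both sgRNA#1 libraries (813 and 1052) were above the control of the same number (641 and 1041). LINC01608 had the same pattern, with a difference of 0.1533 (SE 0.234, adjusted p = 0.999). Its expected counts did not show it either, at 16 and 16 in the controls, 33 and 15 with sgRNA#1, and 33 and 7 with sgRNA#2.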

How the results depend on the processing

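Without the replicate block, every alternative of tool, filter, quantification, membership limit and left-out library called 0 of the LINC genes for sgRNA#1, sgRNA#2, genotype and the guides' difference. With the replicate block alone, the counts were 0, 1, 1 and 0. With the block, 1 gene was called for sgRNA#2 and for genotype with DESeq2 size factors, with expected counts, with a stricter filter (50 counts on average) and with a membership limit of 10 or 50. The 1 gene for genotype in limma on log2(FPKM + 0.1) was LINC01021, not LINC00861. Without a filter, the block gave 1 gene for sgRNA#1, 2 for sgRNA#2 (LINC00861 and LINC00998), 1 for genotype and 1 for the guides' difference. In fits of only the 4 libraries compared it gave 1 for each guide and 1 for their difference. Leaving out 1 library at a time, with the block, gave 0 to 4 for sgRNA#1, 1 to 5 for sgRNA#2, 0 to 3 for genotype and 0 to 1 for the difference, with the highest counts of the first 3 without control replicate 2. These fits leave 1 residual degree of freedom for the guides and 2 for genotype, and the lone library of a group is assumed to vary like the rest. Calls between replicate numbers were 27, 16 with DESeq2, 22 to 33 under the other alternatives of quantification, scaling, filter, limma and membership limit, and 18 to 25 with 1 library left out. The causes were not tested.

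For the 33 genes recomputed by name, 285 of the genotype values under alternatives kept direction and call, 4 passed the threshold (LINC00861 with the block) and 45 reversed. This tally holds blocked fits with 1 library left out for LINC00861 only. Other genotype calls with the block were those of LINC00689 and LINC00998 with 1 library left out and of LINC01021 in limma. With the block, LINC00094 became 0.17 (expected counts) and 0.16 (limma), LINC00987 0.080 and 0.0080, LINC01608 0.31 and 0.18 and LINC00476 0.072 (expected counts), while LINC00894 became -0.089 (edgeR) and -0.15 (DESeq2) and LINC01296 -0.0013 (DESeq2). Without the block, leaving out 1 control moved some values that did not reverse by over 1.5 times, as for LINC00909 (0.16 to 0.94), LINC00641 (0.12 to 0.68), LINC00116 (0.14 to 0.41) and LINC00115 (-0.69 to -0.15). Leaving out 1 library moved LINC00094 from -0.13 to 0.079, LINC00152 from -0.51 to 0.14, LINC00476 from -0.47 to 0.071, LINC00493 from -0.25 to 0.16, LINC00508 from -0.0032 to 0.12, LINC00623 from -0.79 to 0.50, LINC00657 from -0.014 to 0.044, LINC00659 from -0.64 to 0.21, LINC00894 from -0.32 to 0.27, LINC00963 from -0.48 to 0.37, LINC01004 from -0.089 to 0.67, LINC01029 from -0.072 to 0.38, LINC01089 from -0.25 to 0.17, LINC01234 from -0.42 to 0.15, LINC01287 from -0.063 to 0.18, LINC01296 from -0.19 to 0.22, LINC01311 from -0.40 to 0.85, LINC01366 from -1.56 to 1.33, LINC01399 from -0.62 to 0.22 and LINC01608 from -0.31 to 0.34. With the block, the median standard error exceeded the median absolute genotype fold change for the 80 genes (0.196 and 0.13) and slightly for all tested genes (0.103 and 0.098), and the parts of depth and of the number of libraries were not separated.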
